A study of Mus musculus and Homo sapiens with 30 samples.

Results

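The mRNAs of the mitochondrial respiratory chain and ATP synthase were examined in mouse mammary cells that had received adipocyte secretome. Members were the protein-coding genes whose symbols name subunits of complexes I to V in the Nduf, Sdh, Uqcr, Cox and Atp5 families or the mitochondrially encoded mRNAs, with a mean of at least 1 CPM (a count per 1000000 counts of its library) in 1 of the lines. Of 98 protein-coding genes with such symbols, 88 met this level, among 56980 IDs in the mouse table. The 88 members were 76 nuclear genes (36 of complex I, 4 of complex II, 8 of complex III, 11 of complex IV and 17 of complex V) and 12 mitochondrial genes (6, 0, 1, 3 and 2). Just outside the level were mt-Nd3 at 0.672 CPM, the muscle-type subunit gene Cox7a1 at 0.589 CPM and Ndufa4l2 at 0.375 CPM, each in the line where it was higher. Just inside were mt-Nd4l at 1.72 CPM and mt-Atp8 at 5.19 CPM. Some subunits have symbols that the patterns do not take, such as Cyc1 and Ndufab1.

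The cells were E0771, a mouse mammary cancer line, and NMuMG, a mouse mammary epithelial line. After 36 h of growth each received standard growth medium (control), or a mix of 50% growth medium and 50% secretome of inguinal adipocytes labelled lean or obese, for 16 h. In every comparison with control, added secretome and the smaller part of growth medium therefore cannot be told apart. E0771 was grown in DMEM with 10% serum, and NMuMG medium had the same base plus added glucose and insulin. Each of the 6 groups had 3 libraries. The labels do not say that replicates came from separate cultures, or how many animals or preparations gave the secretomes, so p-values measure only the spread between these libraries. The question is whether secretome of lean or obese adipocytes changed the transcripts of the respiratory chain, and whether the cancer line and the epithelial line differed.

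Respiratory complexes I to IV pass electrons from NADH and succinate to oxygen, and complexes I, III and IV pump protons that drive ATP synthesis by complex V. Complexes I, III, IV and V are built from subunits of both genomes, whereas all subunits of complex II come from nuclear genes. The mitochondrial genes are transcribed from the mitochondrial genome as long precursors that are cut into single mRNAs, while the nuclear genes are transcribed one by one.

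Library totals were 22929035 to 31094119 counts. E0771 did not carry most of the epithelial markers: Krt8 was at 229 to 258 CPM, while the other 5 of 6 markers (Epcam, Cdh1, Krt18, Krt19 and Cldn4) had means under 1 CPM in every medium. In NMuMG the 6 markers summed to 7110 to 7520 CPM in control medium, 7800 to 8080 CPM in lean secretome and 6720 to 7020 CPM in obese secretome. The 8 adipocyte markers summed to at most 1.61 CPM in E0771, and in NMuMG to 2.03 to 2.19 CPM in lean secretome and at most 1.08 CPM in the other media, with Lep and Cfd at 0 in all 3. The NMuMG difference lay mostly in Cidec, at means of 0.55, 2.02 and 0.63 CPM in control medium, lean and obese secretome. In E0771 the 5 fibroblast markers, mostly collagen mRNA, summed to 758 to 840 CPM in control medium, 295 to 321 CPM in lean secretome and 530 to 729 CPM in obese secretome, with Lum at 0 in lean secretome, and their part in the results below was not tested. In bulk RNA, fewer cells of one kind and less RNA per cell cannot be told apart.

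The sequences upstream of 4 nuclear members are shown as examples of the motifs counted at the end: each window holds a motif of a factor known for respiratory genes. NRF1, ETS factors (GABPA) and YY1 are transcription factors that bind many promoters of this pathway. Each run is the 250 bases before the RefSeq start site on GRCm38.p6, 5′ to 3′ on the gene's strand, with the motif in capitals on whichever strand it was found. Atp5g2 (chr15:102671048-102671297, minus strand) and Ndufa8 (chr2:36049339-36049588, minus strand) hold the NRF1 motif, 32 and 20 bases before the start. Uqcr11 (chr10:80406822-80407071, minus strand) holds the ETS motif and Ndufb11 (chrX:20617620-20617869, minus strand) the YY1 motif, 59 and 203 bases before the start.
Atp5g2: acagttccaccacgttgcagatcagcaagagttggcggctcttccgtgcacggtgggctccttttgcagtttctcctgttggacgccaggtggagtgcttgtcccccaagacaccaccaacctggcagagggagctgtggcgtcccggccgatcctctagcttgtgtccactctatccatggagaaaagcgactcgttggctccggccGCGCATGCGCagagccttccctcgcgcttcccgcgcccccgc
Ndufa8: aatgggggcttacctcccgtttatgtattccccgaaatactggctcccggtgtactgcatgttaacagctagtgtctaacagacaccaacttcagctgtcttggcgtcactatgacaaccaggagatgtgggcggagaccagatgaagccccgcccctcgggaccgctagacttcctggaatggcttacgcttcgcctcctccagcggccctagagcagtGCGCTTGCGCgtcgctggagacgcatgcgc
Uqcr11: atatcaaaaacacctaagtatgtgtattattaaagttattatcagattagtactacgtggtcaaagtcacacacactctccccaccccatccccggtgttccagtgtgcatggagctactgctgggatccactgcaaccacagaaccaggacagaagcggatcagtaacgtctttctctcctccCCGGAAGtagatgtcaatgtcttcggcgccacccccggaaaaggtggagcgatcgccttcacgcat
Ndufb11: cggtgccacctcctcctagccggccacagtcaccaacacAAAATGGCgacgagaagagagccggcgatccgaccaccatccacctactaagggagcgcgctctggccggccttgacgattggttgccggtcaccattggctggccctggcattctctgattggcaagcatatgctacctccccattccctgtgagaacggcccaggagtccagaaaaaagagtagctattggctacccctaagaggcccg

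In E0771, most nuclear respiratory chain mRNAs were lower with lean than with obese secretome. Of the 76 nuclear members, 56 fell (73.7%), 1 rose and 19 were not called, at an adjusted p under 0.05 in edgeR's quasi-likelihood test. In the same comparison 52.7% of all 13813 genes tested were called, 26.9% as lower and 25.8% as higher. The members' called share exceeded the background through falls alone, and their share of rises (1.32%) was below it. The median log2 fold change was −0.188 over the nuclear members and 0.003 over all genes tested. A median of −0.188 is a change of −12.2%, and 75 of 76 estimates lay below 0. The lean and obese libraries did not overlap for 61 nuclear members, against 60.3% of all genes tested. For 60 of them all 3 lean libraries lay below all 3 obese libraries, a pattern that 29.7% of all genes tested showed.

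**Figure D1:**
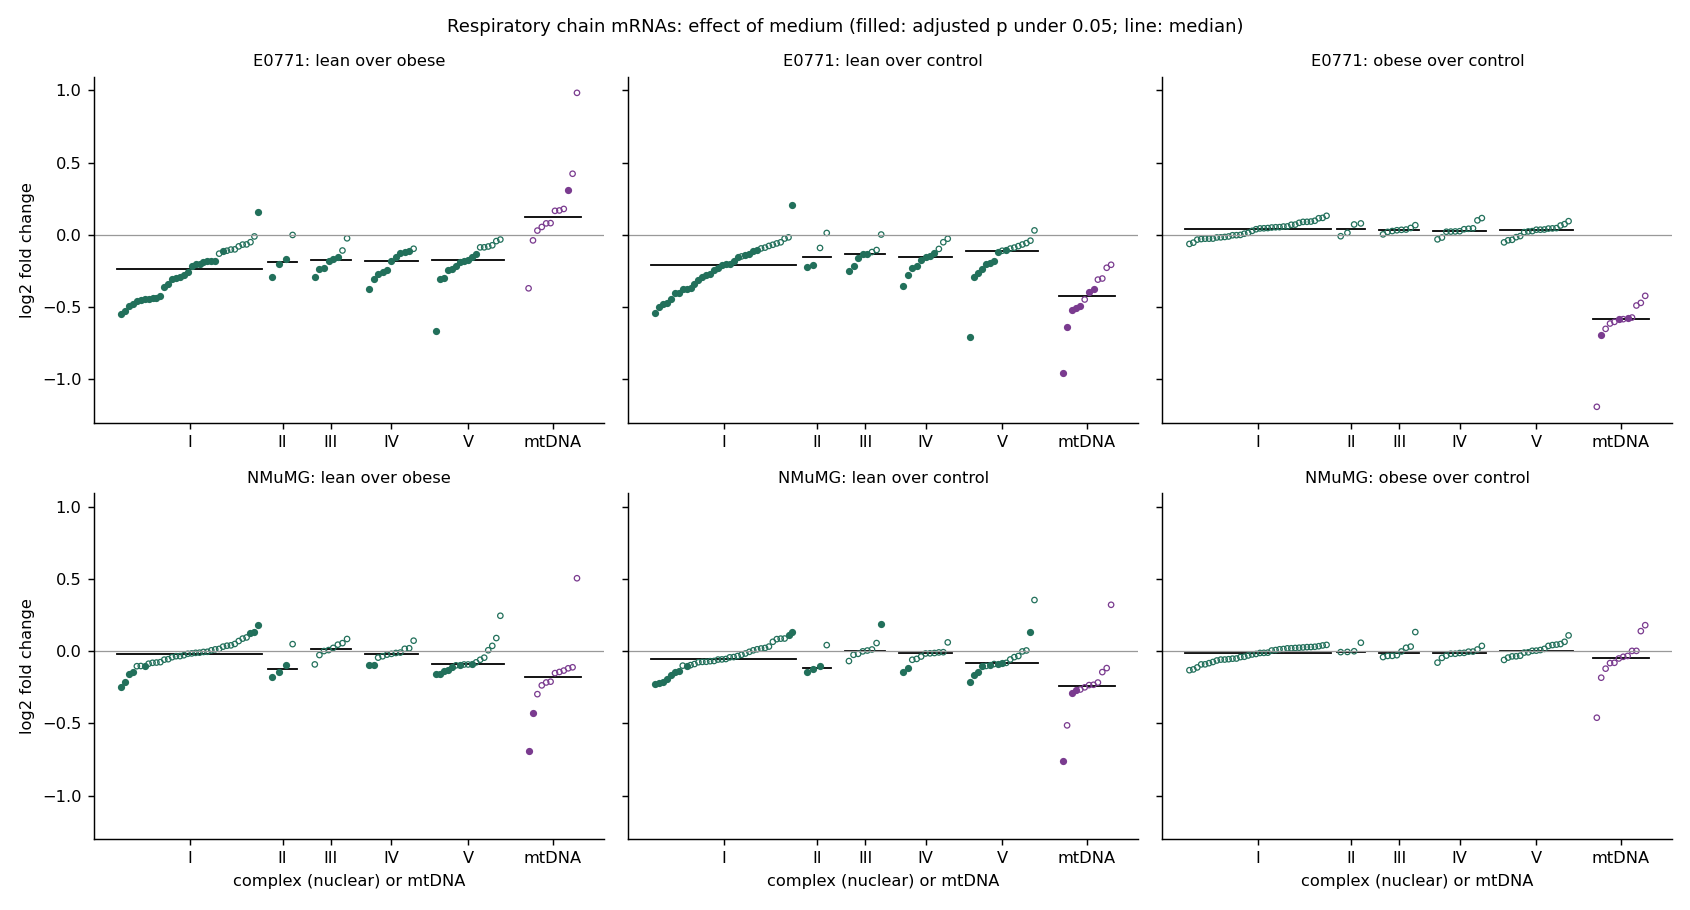
Log2 fold changes of the 88 members for 3 comparisons of media (columns) in E0771 and NMuMG (rows), with nuclear members by complex and mitochondrial (mtDNA) members apart. Filled points were called at an adjusted p under 0.05 and lines are medians; in E0771 the nuclear medians lie below 0 for lean over obese and lean over control, and the mitochondrial median lies below 0 for both secretomes over control.

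Complex I, the NADH dehydrogenase, had the lowest median of the 5 complexes at −0.236, with 26 of 36 nuclear members lower and 1 higher. Ndufv1, which carries the flavin that takes electrons from NADH, was at 124, 127 and 139 CPM in control medium, 96.4, 94.3 and 86.3 CPM in lean secretome and 132, 137 and 133 CPM in obese secretome. The lean libraries were the 3 lowest, and Ndufv1 fell by 0.55 ± 0.05 (SE) on the log2 scale against obese secretome (adjusted p = 2.19e-09). Ndufs1, the largest iron-sulfur subunit of the same arm, fell by 0.49 ± 0.05, with lean libraries at 113, 112 and 101 CPM and obese libraries at 150, 152 and 155 CPM. The accessory subunit gene Ndufa6 was at 39.9, 37.8 and 37.8 CPM in control medium, at 27.0, 28.3 and 24.9 CPM in lean secretome and at 38.6, 39.4 and 37.1 CPM in obese secretome. Its fall was 0.53 ± 0.06 on the log2 scale, and its control and obese libraries overlapped.

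Further falls in complex I reached the flavoprotein gene Ndufv3 (0.48), the membrane-arm gene Ndufb11 (0.46), Ndufa13 (0.45) and the core iron-sulfur genes Ndufs7 (0.31) and Ndufs8 (0.26) on the log2 scale. The exception in sign was Ndufa8, an accessory subunit held in the intermembrane space. Ndufa8 stood at 80.0, 83.3 and 85.0 CPM in control medium, 92.1, 101 and 94.6 CPM in lean secretome and 88.1, 83.5 and 85.3 CPM in obese secretome. The lean libraries were highest and the other groups overlapped. Ndufa8 rose by 0.16 ± 0.05 (adjusted p = 0.00685), and without lean replicate 2 its adjusted p was 0.0638. The 9 nuclear complex I members without a call included the core genes Ndufs3, Ndufs4 and Ndufv2, with log2 fold changes of −0.07, −0.01 and −0.08.

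Complex II oxidises succinate and also serves the tricarboxylic acid cycle. Sdhb, its iron-sulfur subunit, was at 82.1, 85.3 and 73.9 CPM in lean secretome and at 93.6, 102 and 98.7 CPM in obese secretome, and fell by 0.30 ± 0.06. Sdha, the flavoprotein, fell by 0.20 ± 0.04, from 264, 271 and 266 CPM in obese secretome to 241, 233 and 224 CPM in lean secretome. The membrane anchor genes differed from each other: Sdhc fell by 0.17 ± 0.05, while Sdhd was at 139, 136 and 127 CPM in lean and 132, 133 and 136 CPM in obese secretome, with overlapping libraries and a log2 fold change of −0.0008 ± 0.04.

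In complex III, which passes electrons from ubiquinol to cytochrome c, 6 of 8 nuclear members fell, with a median of −0.174. The largest fall was that of the small subunit gene Uqcr11, by 0.29 ± 0.05, from 67.2, 65.1 and 69.2 CPM in obese to 55.9, 54.8 and 55.0 CPM in lean secretome. Uqcrfs1, the Rieske iron-sulfur protein, was not called at −0.02 ± 0.05. In complex IV, cytochrome c oxidase, 10 of 11 nuclear members fell, with a median of −0.178, and the eleventh, Cox7a2, was at −0.10 ± 0.05. Cox7a2l, known for joining complexes III and IV into supercomplexes, had the largest fall of that complex, 0.38 ± 0.04. Its lean libraries stood at 94.1 to 102 CPM and its obese libraries at 125, 127 and 129 CPM. Cox4i1, the common form of the regulatory subunit, fell by 0.11 ± 0.04, and its call was lost with DESeq2 and when obese replicate 2, obese replicate 3 or lean replicate 1 was left out (adjusted p up to 0.168). Its alternative form Cox4i2 was at 0.0118 to 0.0122 mean CPM in the 3 media, from 1 read per medium.

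In complex V, 11 of 17 nuclear members fell, with a median of −0.173. The largest fall among all members was that of Atp5g2 (ENSMUSG00000062683), 1 of 3 genes for the proton-carrying c subunit of the rotor ring. Its values were 151, 147 and 159 CPM in control medium, 94.7, 97.5 and 90.3 CPM in lean secretome and 141, 153 and 153 CPM in obese secretome. The lean libraries lay far below the others, and the fall against obese secretome was 0.67 ± 0.05 on the log2 scale (adjusted p = 3.18e-11), a change of −37.1%. The other c subunit genes moved less, with Atp5g3 called at −0.13 and Atp5g1 at −0.04 without a call. The catalytic head genes Atp5a1 and Atp5b fell by 0.24 and 0.22. Atp5b was the most abundant of these, at 1479, 1517 and 1418 CPM in lean and 1679, 1723 and 1715 CPM in obese secretome.

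**Figure D2:**
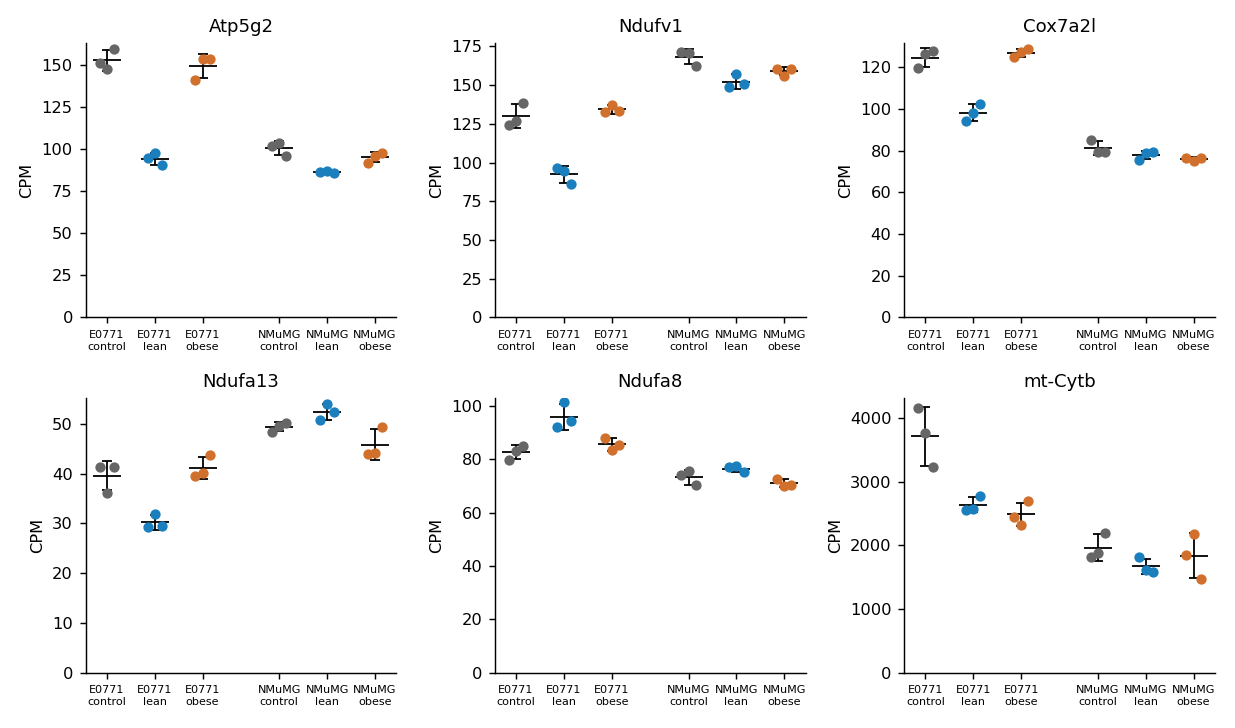
CPM of 6 members in each of the 18 libraries, by line and medium (points: libraries; bars: mean ± SD, n = 3; axes start at 0). Among the E0771 libraries, Atp5g2, Ndufv1 and Cox7a2l are lowest and Ndufa8 is highest in lean secretome, Ndufa13 is lower in lean secretome in E0771 and higher in NMuMG, and mt-Cytb is highest in E0771 control medium.

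Against control medium the nuclear falls in E0771 were similar in kind, in a comparison that shares its lean libraries with the one above. Lean secretome over control gave 50 nuclear members lower and 1 higher (Ndufa8, by 0.20 ± 0.05), where 56.3% of all genes tested were called and 29.0% were lower. Lean libraries lay below all control libraries for 49 nuclear (64.5%) and 9 mitochondrial members (75%), against 30.6% of all genes tested. The nuclear median was −0.160, and complex medians ran from −0.110 (complex V) to −0.207 (complex I). Atp5g2 fell by 0.71 ± 0.05 and Ndufa6 by 0.54 ± 0.06. Obese secretome over control gave no nuclear member called with edgeR, where 2.61% of all genes tested were called (1.21% higher and 1.4% lower), and 4 nuclear members had an unadjusted p under 0.05. DESeq2 also gave 0 nuclear members here. The median was 0.0351, and the nuclear estimates ran from −0.063 to 0.132. Libraries of the 2 media did not overlap for 10 nuclear members, each higher in obese secretome, against 21.5% of all genes tested.

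The mitochondrial mRNAs of E0771 did not follow the nuclear ones. They were highest in control medium and lower with both secretomes, so that the lean and obese groups were close. A fall shared by both secretomes cannot be told apart from an effect of less growth medium, since both mixes held less of it than control. The 13 mitochondrial mRNAs made up 2.01%, 1.88% and 1.56% of all counts in control medium, 1.30%, 1.28% and 1.39% in lean secretome and 1.19%, 1.16% and 1.37% in obese secretome. Every control library lay above all 6 secretome libraries, and the lean and obese libraries overlapped. The nuclear members, in contrast, made up 0.916%, 0.952% and 0.987% of counts in control medium, 0.853%, 0.867% and 0.820% in lean secretome and 0.966%, 0.985% and 0.980% in obese secretome. There, the lean libraries alone lay below, and control replicate 1 was the nearest to them.

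**Figure D3:**
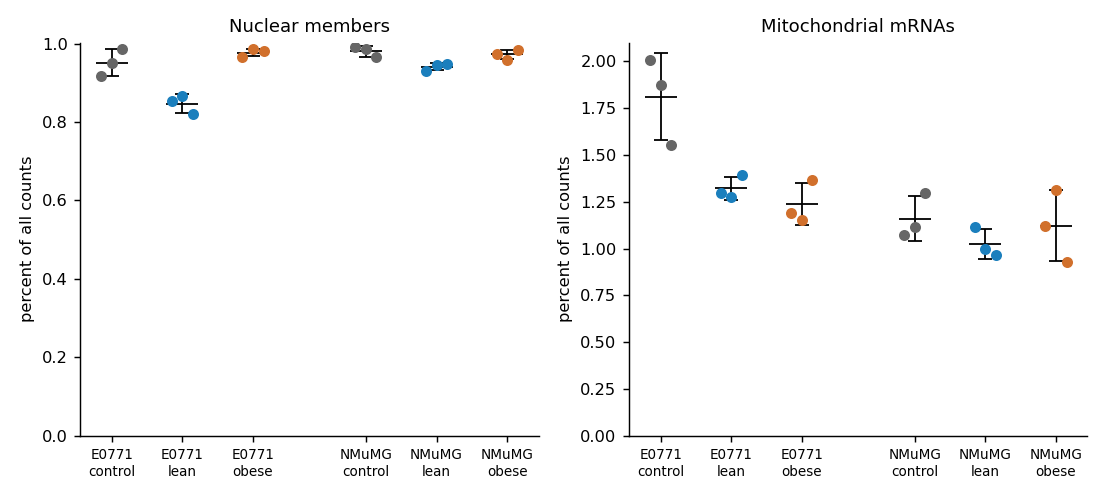
Percent of all counts held by the 76 nuclear members (left) and by the 13 mitochondrial mRNAs (right) in each library, by line and medium (points: libraries; bars: mean ± SD, n = 3). In E0771 the nuclear share is lowest in lean secretome, at 0.820% to 0.867%, and the mitochondrial share is highest in control medium, at 1.56% to 2.01%.

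In the gene-wise test of lean over control in E0771, 56.3% of all genes tested were called, 29.0% as lower and 27.3% as higher. A similar share of the 12 mitochondrial members was called, all as lower: 7 fell (58.3%) and none rose, with a median of −0.420. They were mt-Nd6 (0.95 ± 0.18), mt-Nd4 (0.64 ± 0.12), mt-Co1 (0.52 ± 0.10), mt-Cytb (0.51 ± 0.10), mt-Nd5 (0.49 ± 0.12), mt-Co3 (0.39 ± 0.12) and mt-Co2 (0.38 ± 0.10), as falls on the log2 scale. mt-Cytb, the only complex III subunit from the mitochondrial genome, was at 4159, 3762 and 3229 CPM in control medium, 2559, 2579 and 2777 CPM in lean secretome and 2444, 2324 and 2691 CPM in obese secretome. mt-Nd6, the only mRNA from the other strand of the mitochondrial genome, was at 71.9, 62.4 and 43.6 CPM in control medium, 33.2, 29.6 and 30.1 CPM in lean secretome and 42.9, 39.9 and 36.9 CPM in obese secretome. Control replicate 3 was the lowest control library for both genes and lay above all secretome libraries in both.

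With obese secretome over control, 3 mitochondrial members (25%) fell in E0771, where 1.4% of all genes tested were called lower. They were mt-Co2 (0.69 ± 0.10), mt-Cytb (0.58 ± 0.10) and mt-Co1 (0.58 ± 0.10). The estimates of all 12 were between −0.42 and −1.19, with a median of −0.584, and for all 12 the obese libraries lay below all control libraries, a pattern of 9.69% of all genes tested. mt-Nd1 and mt-Nd5, for example, were at −0.47 ± 0.12 (adjusted p = 0.121) and −0.57 ± 0.12 (adjusted p = 0.0878). The number called depended on single libraries: it was 1 without control replicate 1, control replicate 2 or obese replicate 1, and 8 without control replicate 3. With DESeq2, 9 of the 12 were called. The call of mt-Co2 was kept in all 15 alternatives, that of mt-Cytb was lost in 9 and that of mt-Co1 in 11.

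With lean over obese secretome 52.7% of all genes tested were called in E0771, 25.8% as higher. Of the 12, mt-Co2 alone was called (8.33%), and it rose by 0.31 ± 0.11 (adjusted p = 0.0152). Its counts were low, at 11.5, 11.1 and 12.1 CPM in lean and 8.99, 7.90 and 10.8 CPM in obese secretome. The median of the 12 was 0.124, against −0.188 for the nuclear members. The call was absent without obese replicate 1 or obese replicate 2, and 2 mitochondrial members were called when obese replicate 3, lean replicate 2, control replicate 3 or control replicate 1 was left out.

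The levels of the mitochondrial mRNAs fell into separate ranges along the genome. Per kb of transcript, mt-Nd1, mt-Nd2, mt-Co1, mt-Nd4, mt-Nd5, mt-Nd6 and mt-Cytb were at 83.6 to 3633 CPM in E0771 and 74.2 to 2869 CPM in NMuMG. The 6 consecutive mRNAs from mt-Co2 to mt-Nd4l (mt-Co2, mt-Atp8, mt-Atp6, mt-Co3, mt-Nd3 and mt-Nd4l) were at 1.93 to 25.4 and 1.37 to 18.8 CPM per kb. These 6 held 0.215% to 0.391% of the mitochondrial mRNA counts in E0771 libraries and 0.213% to 0.314% in NMuMG libraries. The nuclear members had medians of 48.2 and 54.3 CPM per kb.

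**Figure D4:**
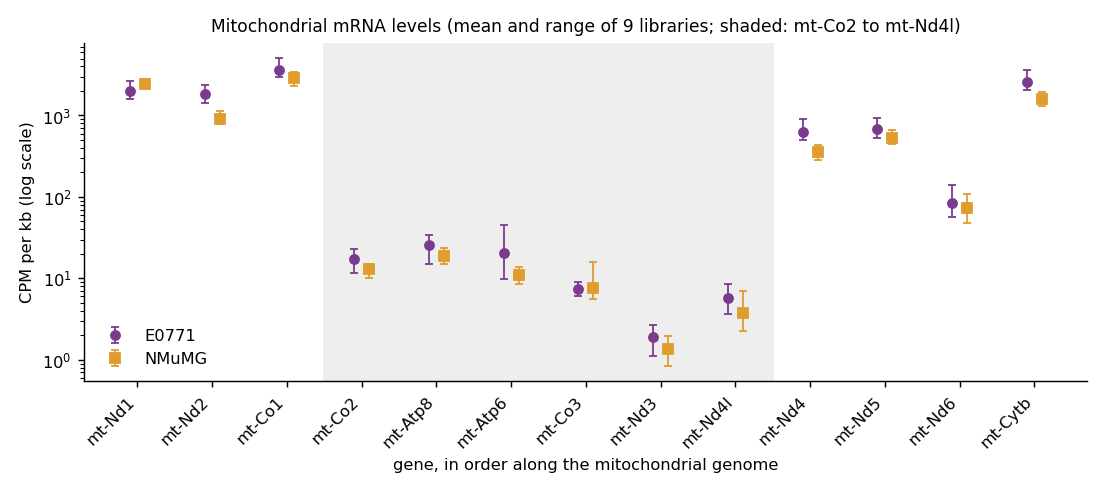
Mean CPM per kb of the 13 mitochondrial mRNAs in genome order, on a log axis, in E0771 and NMuMG (points: means; bars: range over 9 libraries). The shaded 6 genes from mt-Co2 to mt-Nd4l lie at 25.4 CPM per kb or less, and the other 7 at 74.2 CPM per kb or more.

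The stretch of low values overlaps in part with annotated nuclear copies of mitochondrial sequence on chromosome 1. Of the 13 mRNAs, 7 match such a copy with at least 98% identity over at least 150 bases: mt-Co2, mt-Atp6, mt-Co3, mt-Nd3 and mt-Nd4l over nearly their whole length, mt-Nd4 over 876 of 1378 bases and mt-Co1 over 483 of 1545 bases. A 61-base run of mt-Co2 (chrM:7323-7383, plus strand) is shown because it is the same, base for base, in the copy Gm28661 (chr1:24615195-24615255, minus strand), as are all 681 bases compared.
mt-Co2: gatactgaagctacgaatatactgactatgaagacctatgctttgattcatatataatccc
Between mt-Nd3 and its copy Gm28438, 1 of 345 bases differs. The first 61 bases of both are shown with the differing base in capitals, T3C counted from the 5′ end of mt-Nd3 (chrM:9459-9519, plus strand, and chr1:24613059-24613119, minus strand; all positions on GRCm38).
mt-Nd3: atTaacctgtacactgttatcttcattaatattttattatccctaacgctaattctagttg
Gm28438: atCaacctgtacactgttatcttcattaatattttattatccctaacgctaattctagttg
Reads from such stretches cannot be told apart between the genomes, and Gm28661 and the mt-Atp6 copy Gm10925 were themselves counted at 15.1 and 17.5 CPM in E0771, near the 11.9 and 14.1 CPM of mt-Co2 and mt-Atp6. The search covered annotated transcripts only, so it could not see a copy without an annotation. It found none for mt-Atp8, which lies in the low stretch between mt-Co2 and mt-Atp6, both with copies. mt-Nd4 and mt-Co1, copied over part of their length, stood at 622 and 3633 CPM per kb in E0771. How the counting treated reads with several matches, and its part in the low values, was not tested.

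Single libraries also stood apart within this stretch. mt-Atp6 in E0771 had 845 counts in control replicate 1 against 336 and 258 in the other controls, and 741 counts in lean replicate 2 against 271 and 365. mt-Co3 in NMuMG had 340 counts in lean replicate 2 against 136 and 113. In E0771 the 7 mRNAs outside the stretch gave the same picture as all 12 members: 5 of 7 fell with lean over control (median −0.505), 2 of 7 with obese over control (median −0.576) and none was called for lean over obese (median 0.0794). With lean over obese, none of the 7 had an unadjusted p under 0.05 in edgeR, and DESeq2 called 2 of all 12.

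In NMuMG the nuclear mRNAs moved less with lean secretome. Lean over obese gave 17 of 76 nuclear members lower, 3 higher and 56 not called, where 35.0% of all 15014 genes tested were called. Lower members were 22.4% and higher members 3.95% of the 76, against 17.4% and 17.6% of all genes, and the median was −0.0278. Libraries did not overlap for 34 nuclear members, against 45.2% of all genes tested, and for 24 of these the lean libraries were lower, against 20.8%. In the same comparison 5 of 6 epithelial markers rose, and the part of that shift in the nuclear falls was not tested. Falls were in complex I (5 of 36), complex II (3 of 4), complex IV (2 of 11) and complex V (7 of 17), and none of the 8 complex III members was called. The count was 13 without lean replicate 1 and 12 without obese replicate 3.

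The largest NMuMG fall per complex was small. Ndufb2, an accessory subunit of the membrane arm, was at 20.9, 23.9 and 23.8 CPM in lean and 27.3, 26.7 and 26.6 CPM in obese secretome, and fell by 0.25 ± 0.06. Sdhb fell by 0.18 ± 0.04, from 90.1, 92.4 and 94.0 CPM in obese to 81.4, 81.4 and 83.2 CPM in lean secretome. The α subunit gene Atp5a1 of the ATP synthase head fell by 0.16 ± 0.03, with lean libraries at 965, 963 and 973 CPM and obese libraries at 1064, 1053 and 1091 CPM. The complex IV gene Cox7a2 fell by 0.10 ± 0.04 (adjusted p = 0.0478), a call that was lost in 13 of 15 alternatives (adjusted p up to 0.221).

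Increases in NMuMG were those of Ndufa13, Ndufa4 and Ndufs3. Ndufa13, a complex I subunit also known as GRIM-19, was at 50.9, 54.0 and 52.3 CPM in lean and 44.0, 44.1 and 49.4 CPM in obese secretome, and rose by 0.18 ± 0.05 (adjusted p = 0.00529). Ndufa4, named for complex I but now counted with complex IV, was at 142, 147 and 144 CPM in lean and 131, 129 and 132 CPM in obese secretome, and rose by 0.13 ± 0.04. In E0771 Ndufa4 fell by 0.11 ± 0.04 in the same comparison, and that call was lost in 5 of 15 alternatives (adjusted p up to 0.109).

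Lean over control in NMuMG gave 20 nuclear members lower (26.3%) and 4 higher (5.26%). Of all genes tested 38.2% were called, 19.1% as lower and 19.1% as higher. Libraries did not overlap for 37 nuclear members (48.7%), against 48.0% of all genes tested, and for 30 of these (39.5%) the lean libraries were lower, against 24.4%. The 4 were Uqcrh, the hinge protein of complex III (0.19 ± 0.04), Ndufa4 (0.14 ± 0.04), the ATP synthase gene Atp5l (0.13 ± 0.05) and Ndufa9 (0.11 ± 0.04). The largest falls were those of Ndufa5 (0.23 ± 0.07) and Atp5g2 (0.22 ± 0.04), the second from 102, 104 and 95.6 CPM to 86.3, 86.7 and 85.5 CPM. The nuclear count was 15 without control replicate 1. Obese over control gave 0 of 76 nuclear and 0 of 12 mitochondrial members in edgeR and in DESeq2, where 5.01% of all genes tested were called in edgeR (2.34% higher and 2.66% lower), and 3 nuclear and 0 mitochondrial members had an unadjusted p under 0.05. The media did not overlap for 12 nuclear members there, against 21.3% of all genes tested.

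The summed share of the mitochondrial mRNAs overlapped between the media in NMuMG. It was 1.07%, 1.11% and 1.30% in control medium, 1.12%, 0.996% and 0.963% in lean secretome and 1.12%, 1.31% and 0.931% in obese secretome. With lean over obese, mt-Nd6 fell by 0.69 ± 0.20 and mt-Atp6 by 0.43 ± 0.11, which is 16.7% of the 12 members. Of all genes tested 17.4% were called lower, so this count was near the background. mt-Nd6 was at 32.6, 28.3 and 24.7 CPM in lean and 43.4, 56.4 and 38.0 CPM in obese secretome, without overlap. The call of mt-Nd6 was lost in 8 of 15 alternatives (adjusted p up to 0.113), among them those that left out obese replicate 1 or 2, lean replicate 2 or 3, or control replicate 2, each of which left 1 call. With lean over control, all lean libraries lay below all control libraries for 6 of 12 members (mt-Nd2, mt-Nd5, mt-Nd6, mt-Cytb, mt-Atp6 and mt-Atp8), against 24.4% of all genes tested, and the median of the 12 was −0.243. In that comparison 3 of 12 members (25%) fell, against 19.1% of all genes tested: mt-Nd4l (0.76 ± 0.28), mt-Atp6 (0.29 ± 0.11) and mt-Co2 (0.27 ± 0.11). All 3 lay in the stretch from mt-Co2 to mt-Nd4l, and the lean and control libraries of mt-Nd4l and mt-Co2 overlapped. Of these 3 calls, 1 was left without control replicate 1, control replicate 3, lean replicate 2 or lean replicate 3.

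The effect of lean against obese secretome differed between the lines for 37 of 76 nuclear members, by the interaction test in 1 fit of 18 libraries. It was lower in E0771 for 36 and higher for 1, where 34.2% of all 16529 genes tested were called and 15.5% were lower in E0771. The growth media of the lines differed in glucose and insulin, so differences of line and of medium cannot be told apart in the interaction test. By complex, 19 of 36 (I), 1 of 4 (II), 5 of 8 (III), 7 of 11 (IV) and 4 of 17 (V) were lower in E0771. The 5 with the smallest p were Atp5g2 (difference −0.50 ± 0.06), Ndufa13 (−0.62 ± 0.08), Ndufv1 (−0.45 ± 0.06), Ndufs1 (−0.42 ± 0.06) and Cox7a2l (−0.38 ± 0.06) on the log2 scale. In NMuMG, Ndufv1 was at 148, 157 and 151 CPM in lean and 161, 156 and 161 CPM in obese secretome, and Cox7a2l at 75.5, 78.8 and 79.2 CPM against 76.5, 75.1 and 76.6 CPM. Both overlapped, whereas in E0771 neither did. Gm6969, an annotated gene that shares 201 bases with Cox7a2l, was counted at 0.187 CPM in E0771 and 15.8 CPM in NMuMG. Its part in the Cox7a2l difference was not tested.

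Ndufa13 moved in opposite directions in the lines, with E0771 lean libraries at 29.2, 31.9 and 29.5 CPM and obese libraries at 39.5, 40.2 and 43.8 CPM. Sdhd was the single member with a higher effect in E0771 (0.16 ± 0.06), since it fell in NMuMG (by 0.14 ± 0.04) and was not called in E0771. For lean over control, 27 of 76 nuclear members differed between the lines, near the 34.5% of all genes tested that were called. Lower in E0771 were 24 (31.6%), against 15.1% of all genes tested, and higher were 3 (3.95%), against 19.4%. Among the mitochondrial members, mt-Co2 alone was called for lean over obese (0.55 ± 0.16) and for obese over control (−0.63). None was called for lean over control in edgeR or DESeq2, nor had any an unadjusted p under 0.05 in edgeR. With obese over control, however, all 12 differences lay below 0 (median −0.514). There, 9 of 12 had an unadjusted p under 0.05 in edgeR, against 2176 of all 16529 genes tested. These 9 included all 7 members outside the stretch from mt-Co2 to mt-Nd4l. For obese over control 1.69% of all genes tested were called, 0.623% as lower in E0771. The lean over obese count of 1 was 2 without E0771 control replicate 1, E0771 lean replicate 2, NMuMG obese replicate 1 or NMuMG obese replicate 3, and 3 without E0771 obese replicate 3. The obese over control count of 1 was 0 without E0771 control replicate 1, E0771 control replicate 2, E0771 obese replicate 2, NMuMG control replicate 1, NMuMG obese replicate 1 or NMuMG obese replicate 2.

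**Figure D5:**
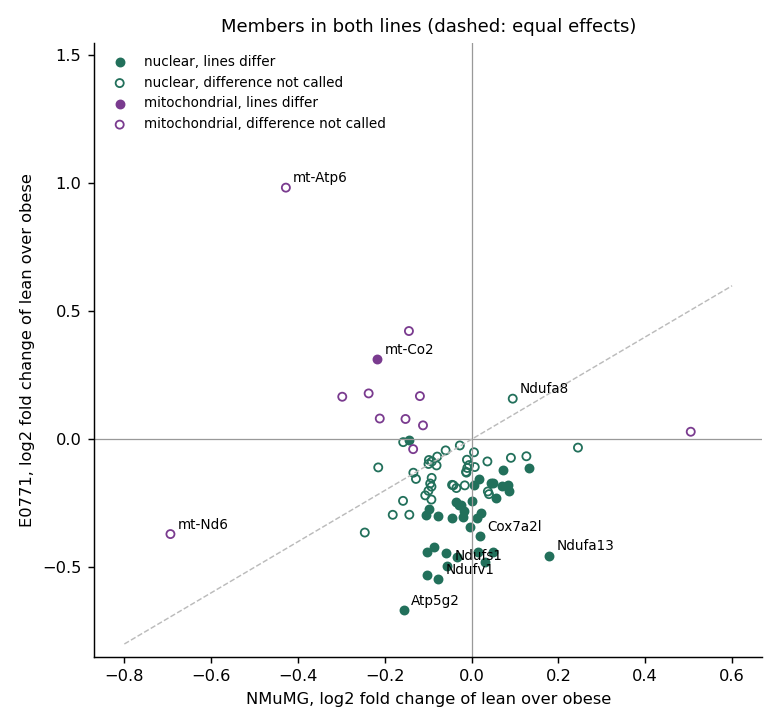
Log2 fold change of lean over obese secretome in NMuMG (x) and E0771 (y) for the 88 members, filled where the lines differed at an adjusted p under 0.05 (dashed: equal effects). Most filled nuclear points lie below the dashed line, with Atp5g2 lowest at −0.67 in E0771 and Ndufa13 at 0.18 in NMuMG and −0.45 in E0771.

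Members called in both lines with lean over obese numbered 14, which is 14 of 57 called in E0771 and 14 of 20 called in NMuMG. That is 18.4% of the nuclear members, against 22.8% of the 12433 genes tested in both lines, so the number shared was not above the background. Lower in both were 12 (15.8%, against 8.12% of all genes): Atp5a1, Atp5b, Atp5c1, Atp5g2, Atp5g3 and Atp5o of complex V, Ndufa10, Ndufb2 and Ndufb7 of complex I, Sdha and Sdhb of complex II, and Cox8a of complex IV. Ndufa4 and Ndufa13 were opposite (2.63%, against 8.2%). The fall of Sdha in NMuMG was 0.10 ± 0.03 and was lost without obese replicate 1 or obese replicate 3 (adjusted p up to 0.0621).

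In control medium, E0771 had 25 nuclear members above NMuMG (32.9%) and 38 below (50.0%), where 80.5% of all genes tested were called, 37.1% higher and 43.4% lower. The nuclear members were thus called about as often as all genes. Of the 12 mitochondrial members, 9 were higher in E0771 and none was lower. Cox8a (−1.45 ± 0.04) and Cox5a (−1.01 ± 0.04), both subunits of complex IV, lay furthest below NMuMG. Cox8a was at 90.9, 89.8 and 96.2 CPM in E0771 and at 234, 241 and 225 CPM in NMuMG. Among the higher were mt-Nd2 (1.06 ± 0.12) and mt-Nd4 (0.96 ± 0.15), while mt-Nd1 was not called (−0.17 ± 0.11). The ribosomal RNAs of the mitochondrial genome, which are not members, had lower means in E0771 than in NMuMG. Those of mt-Rnr1 were 118 and 342 CPM and those of mt-Rnr2 375 and 1817 CPM, in poly(A)-selected libraries. The media of the lines differed too, so line and medium cannot be told apart here.

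Genes that assemble, supply or regulate the chain were read from fixed lists, to be set against the 25.8% of all genes tested that were higher and the 26.9% that were lower in E0771 with lean over obese. There, 4 of 16 complex I assembly factors rose and 3 fell, and 9 of 33 assembly factors of complexes II to V rose and 10 fell, with list medians of −0.03 and 0.003. Ndufaf3, a complex I assembly factor, fell by 0.61 ± 0.10, while Sco2, a copper carrier for complex IV, rose by 0.46 ± 0.09. Of 79 mitochondrial ribosomal protein genes, 27 rose and 16 fell (median 0.04). Of 18 genes of the tricarboxylic acid cycle and pyruvate entry, 2 rose and 8 fell (median −0.08). Idh3g, a subunit of NAD-linked isocitrate dehydrogenase, fell by 0.67 ± 0.05 and Pcx, pyruvate carboxylase, rose by 0.68 ± 0.15.

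Among 18 electron carriers and coenzyme Q genes of E0771, 5 rose and 9 fell (median −0.16). Coq9, a coenzyme Q synthesis factor, had the largest fall, 0.76 ± 0.06, and the carrier pair was split. Cyc1, cytochrome c1 of complex III, fell by 0.21 ± 0.04 as its complex did. Cycs, the soluble cytochrome c, rose by 0.27 ± 0.04, from 115, 111 and 117 CPM in obese to 146, 135 and 135 CPM in lean secretome, above the 104, 110 and 105 CPM of control medium. In NMuMG, Cyc1 fell by 0.11 ± 0.03, and Cycs was not called at −0.09 ± 0.04.

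For mitochondrial transcription and RNA handling, 8 of 26 genes rose and 6 fell in E0771 (median 0.06), and for copying of the mitochondrial genome 4 of 12 rose and 2 fell (median 0.13). Tfam, which packages the mitochondrial genome and starts its transcription, was not called (0.08 ± 0.05), nor was Lrpprc, which stabilises mitochondrial mRNAs (−0.08 ± 0.04), and Polrmt, the mitochondrial RNA polymerase, fell by 0.12 ± 0.04. Of 11 regulators, 1 rose and 4 fell (median −0.09). Ppargc1a, a coactivator of respiratory genes, fell by 0.53 ± 0.11, from 14.4, 18.4 and 17.9 CPM in obese to 12.0, 11.8 and 11.5 CPM in lean secretome. Control libraries of Ppargc1a, at 11.5, 15.3 and 15.4 CPM, overlapped with both ranges. Nrf1 was not called in E0771 (−0.09 ± 0.05), nor was Esrra (0.10 ± 0.07). The 12S ribosomal RNA mt-Rnr1 rose by 0.52 ± 0.10 and was the only call among the 9 mitochondrial rRNAs and tRNAs tested, in libraries selected for poly(A).

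In NMuMG with lean over obese, where 17.6% of all genes tested were called higher and 17.4% lower, 1 of 16 rose for complex I assembly, and 2 rose and 1 fell of 33 for complexes II to V. Of 18 carriers and coenzyme Q genes 4 rose and 4 fell, and of 26 genes of mitochondrial transcription and RNA 1 rose and 3 fell. For genome copying 4 of 12 fell, for ribosomal proteins 6 rose and 8 fell of 79, for the tricarboxylic acid cycle 1 rose and 4 fell of 18, and of 7 mitochondrial rRNAs and tRNAs 1 fell. Of 12 regulators 1 rose and 6 fell. Nrf1 fell by 0.30 ± 0.05, Ppargc1b by 0.63 ± 0.20, and Esrra, the estrogen-related receptor α, rose by 0.22 ± 0.04. Lrpprc fell by 0.14 ± 0.04. Tfam was not called (−0.10 ± 0.05), and Ppargc1a was not called (−0.11 ± 0.10). Whether list counts differed between the lines was not tested.

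Promoter motifs were counted in windows from 250 bases before to 50 after the RefSeq start, on both strands, for 64 of the 76 nuclear members. The NRF1 motif, as capitalised above for Atp5g2 with any base at the sixth position, was in 17 (26.6%), against 5.19% of 27025 genes. The ETS motif CCGGAAG was in 16 (25.0%) against 9.93%, and the YY1 motif AANATGGC in 17 (26.6%) against 6.96%. At least 1 of the motifs was in 43 members (67.2%), against 19.4% of all genes. Among the 46 matched members that fell in E0771 with lean over obese, 33 (71.7%) held 1 or more, and among the other 18, 10 (55.6%) did. Members with the NRF1 motif included both Atp5g2, with the largest fall, and Ndufa8, which rose. A motif match is a description of the letters in the window and not evidence of a bound factor.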

How the data were processed

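RNA of 9 E0771 and 9 NMuMG libraries was measured by poly(A)-selected, directional RNA-seq with paired reads of 150 bases, per the labels' protocols. The authors deposited raw counts per Ensembl gene ID. The submitters' processing notes name STAR 2.7.9a, cutadapt 1.16, featureCounts 1.6.3 and GRCm39, and the strand setting and annotation release are not given in the sources used here. The table of the 12 SkBr3 libraries was not used here. Symbols, biotypes and lengths came from GENCODE M21 on GRCm38 (52073 of 56980 IDs, 99.68% of counts), used for names, lengths and sequence matches, and promoters from RefSeq on GRCm38.p6.

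Each line was fitted with its 3 media in edgeR 4.0.16 under R 4.3.3 (filterByExpr, TMM factors 0.987 to 1.01, robust quasi-likelihood F test, Benjamini-Hochberg adjustment over all genes tested), and the lines together for interactions. Called means an adjusted p under 0.05. ± is the standard error of a log2 fold change, with a median over members of 0.052 in E0771 for lean over obese. The procedure was also run on counts simulated with the fitted spread and with few genes changed. That run does not cover changes as broad as those of E0771. Alternatives were DESeq2 1.42.0, its size factors, no filter, normalization without mitochondrial genes, fits of 2 media, a replicate block and leaving out each library. Members, lists and tests were chosen with earlier results of these data known. Named genes were the mitochondrial members, the largest called increase and decrease per complex, line and lean comparison, the 5 smallest interaction p, preset genes and the extreme genes per list. Other named members were chosen after their values were seen. Of the list symbols, 3 (Coa1, Fastkd4 and Prorp) were not found. By sequence, 20 of 76 nuclear members share at least 150 bases at 98% identity with another annotated gene (among them Cox7a2l, Ndufa13 and Uqcr11), and their counts are less certain. Counts are of reads without molecular identifiers.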

Additional observations from a re-analysis of the deposited data

Results flagged for a closer look

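The interaction test called a difference between the lines in the effect of lean over obese secretome for 37 nuclear members and 1 mitochondrial member, and in that of lean over control for 27 nuclear members. Of all genes tested, 34.2% and 34.5% were called, so the lean over control count was near the background. Lower in E0771 were 47.4% and 31.6% of the nuclear members, against 15.5% and 15.1% of all genes tested. For obese over control the test called 1 mitochondrial member, where 1.69% of all genes tested were called. Values are log2 differences, E0771 minus NMuMG, and the lean over obese and lean over control values share the lean libraries. The growth media of the lines differed too, so line and medium cannot be told apart in these values.

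Among the named genes, the difference for lean over obese was −0.62 for Ndufa13, −0.50 for Atp5g2, −0.45 for Ndufv1, −0.42 for Ndufs1, −0.41 for Ndufa6 and −0.38 for Cox7a2l. It was −0.29 for Uqcr11, −0.27 for Uqcrh, −0.23 for Ndufa4 and −0.20 for Sdhc, and it was 0.16 for Sdhd. For lean over control it was −0.46 for Ndufa13, −0.46 for Atp5g2, −0.34 for Ndufv1, −0.33 for Ndufs1, −0.32 for Uqcrh and −0.30 for Ndufa6. It was −0.27 for Cox7a2l, −0.21 for Uqcr11, −0.21 for Ndufa4 and −0.19 for Atp5l, with 0.18 for Sdhd and 0.17 for Ndufa8. The mitochondrial member was mt-Co2 in both cases, at 0.55 for lean over obese and −0.63 for obese over control, and its reads cannot be told apart from those of its nuclear copy.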

How the results depend on the processing

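Counts of nuclear members called stayed within 1.5 times the reported count under every alternative other than leaving out a library. Without single libraries they were 49 to 58 (E0771 lean over obese), 37 to 56 (E0771 lean over control), 12 to 20 (NMuMG lean over obese, lowest without obese replicate 3), 15 to 25 (NMuMG lean over control, lowest without control replicate 1), 28 to 38 (difference between lines, lean over obese) and 23 to 31 (the same, lean over control). Counts of mitochondrial members were small and moved more. For E0771 lean over obese (reported 1) they were 2 with no filter, with the 2 media alone and with DESeq2, and 0 to 2 without single libraries. For E0771 obese over control (reported 3) they were 9 with DESeq2 and 1 to 8 without single libraries. For NMuMG lean over obese (reported 2) they were 1 with no filter, 1 with the 2 media alone and 1 to 2 without single libraries. For NMuMG lean over control (reported 3) they were 1 with DESeq2 and 1 to 3 without single libraries. For the difference between lines in lean over obese (reported 1) they were 2 with no filter, 3 with DESeq2 and 1 to 3 without single libraries, and in obese over control (reported 1) 0 to 1 without single libraries. Counting only members outside the stretch from mt-Co2 to mt-Nd4l, an alternative chosen after seeing the data, left 0 for E0771 lean over obese, 1 for NMuMG lean over obese, 0 for NMuMG lean over control, and 0 for both differences between lines; fewer members are counted there by construction. For the other alternatives the cause was not tested. Of 70 calls of named genes, 47 were kept under all 15 alternatives and 23 were lost in at least 1, and none changed sign.

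Same-numbered libraries showed little sign of pairing over all genes tested: correlations of their deviations ran from −0.0942 to 0.11 in E0771 and from −0.0285 to 0.025 in NMuMG (9 pairs each). Such a correlation over all genes cannot show whether single genes were paired. With the replicate number as a block, mitochondrial calls for lean over obese were 3 in E0771 and 1 in NMuMG, and nuclear calls 56 and 20.

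With 3 libraries a group and a median standard error of 0.052 (E0771) and 0.0447 (NMuMG) for lean over obese, members without a call may still differ. Low counts limit mt-Nd4l, mt-Atp8 and mt-Co3.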
